A study of Mus musculus with 2 samples.

Results

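The genes described here are 10 components of the Notch pathway: the ligand genes Dll1, Dll4, Jag1 and Jag2, the receptor genes Notch1, Notch2 and Notch3, and the target genes Hes1, Dtx1 and Nrarp. They were taken by name, and all 10 were found among the 19938 genes that the array annotation names through probe sets with 1 gene symbol. Each had 1 such probe set, and 0 further probe sets carried a member's symbol together with another gene's. RNA of cortical thymic epithelial cells (cTECs) was hybridised to 2 Affymetrix arrays. The Tg array held cTEC RNA of Aire transgenic mice and the non-Tg array that of control mice, both on the NOD background and both labelled day 7. In the transgenic strain, described as semi-knockin, Aire is expressed from the promoter of β5t, the cortical thymoproteasome subunit encoded by Psmb11. The labels give 7 Tg and 5 non-Tg as the source of the cells, read here as the animals pooled for each array.

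Notch is a receptor that is cut when a ligand on a neighbouring cell binds it and pulls. The released intracellular part enters the nucleus, joins the DNA-binding protein RBPJ and a Mastermind coactivator, and switches on target genes such as Hes1. In the thymus, Dll4 on epithelial cells is the ligand that commits incoming progenitors to the T cell lineage through Notch1, and the signal is turned down again as thymocytes pass beta selection. Ligand genes are therefore described here as genes of the epithelium, and receptor and target genes apart from them, since thymocytes use these and remain attached to cTECs. The arrays themselves do not assign RNA to a cell type, and in such bulk RNA fewer cells of a type and less RNA per cell cannot be told apart.

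Upstream sequence was looked at for what the genes share beyond their names. RefSeq windows of the GRCm38.p6 build were matched for 9 of the 10 genes, all but Hes1, with 10 windows in all because Dll1 has more than 1 start site. Over the 250 bases upstream of the start, the member windows had a median GC content of 64.8% (range 56% to 87.2%), against a median of 52.4% over all 32851 windows. They held between 13 and 54 CpG dinucleotides, with a median of 17.5, against a median of 6 over all windows. The core letters bound by RBPJ, TGGGAA on either strand, were in 0 of the 10 windows and in 21.6% of all windows. Of the target genes only Dtx1 and Nrarp had a window, so this count covers mostly ligand and receptor genes and leaves out Hes1. The variant TGAGAA was in 1 of the 10 and in 17.2% of all. The GC box GGGCGG, a binding motif of Sp1-type factors, was in 7 of the 10 and in 32.7% of all. This motif does not overlap in its letters with the others and was chosen after the GC content was seen. It holds only G and C, and the share over all windows was not matched for GC content. The count is therefore not a feature apart from the GC content. These are descriptions of letters in a short window and not of binding.

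The windows of Dll4 and Jag1 are printed as the DNA of the ligand genes with the highest and the lowest difference between the arrays, each 5′ to 3′ on the gene's own strand and ending at the base before the start site. The Dll4 window lies at chr2:119325534-119325783 on the + strand, and capitals mark its 2 GC boxes. The Jag1 window lies at chr2:137116521-137116770 on the - strand, and capitals mark the single TGAGAA, which begins 242 bases upstream of the start.
Dll4: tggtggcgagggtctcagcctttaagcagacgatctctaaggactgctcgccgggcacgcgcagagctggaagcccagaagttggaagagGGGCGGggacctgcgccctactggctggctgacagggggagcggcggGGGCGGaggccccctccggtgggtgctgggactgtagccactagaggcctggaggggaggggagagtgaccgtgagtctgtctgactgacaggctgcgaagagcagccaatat
Jag1: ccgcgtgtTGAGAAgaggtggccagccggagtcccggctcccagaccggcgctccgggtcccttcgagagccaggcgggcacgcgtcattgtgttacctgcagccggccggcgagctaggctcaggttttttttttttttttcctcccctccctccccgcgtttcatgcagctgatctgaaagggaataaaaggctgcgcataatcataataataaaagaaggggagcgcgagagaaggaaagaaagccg

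Levels are given on the deposited log2 scale, and a difference is always Tg minus non-Tg. A probe set's level depends on its own probes, so levels were compared between arrays and not between genes. With 1 array per genotype there was no replicate error and no p-value. The nearest available scale was the disagreement between probe sets of the same gene. It was taken from the 2 brightest probe sets of the 658 genes with at least 2 that passed the filter given below. The SD of a difference was 0.30 per probe set. Both probe sets read the same labelled cDNA, so differences among animals or RNA preparations are not in this SD and the true error can be larger. A gene passed the filter if either of its values reached that array's median (5.43 on the Tg array, 5.45 on the non-Tg array). Values under a floor of 4.80, the 25th percentile, were raised to it.

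All 10 Notch genes passed the filter, and 0 of them were 2-fold or more apart between the arrays, where 1.17% of the 11422 genes past the filter were (0.797% higher, 0.376% lower in Tg). At 1.5-fold the count was again 0 of 10, beside 7.86% of genes past the filter (4.74% higher, 3.13% lower in Tg). With so few members, a count of 0 is near what these background shares give, and it says only that no large difference was seen. The differences lay between -0.33 (Jag1) and 0.25 (Dll4), and 73.7% of the genes past the filter differed by no more than 0.33 in either direction. They were above 0 for 3 members and below 0 for 7, with a median of -0.12, while 50.6% of genes past the filter were above 0 and their median was 0.01. For 9 of the 10 members the difference was smaller than the SD of 0.30 per probe set.

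**Figure D1:**
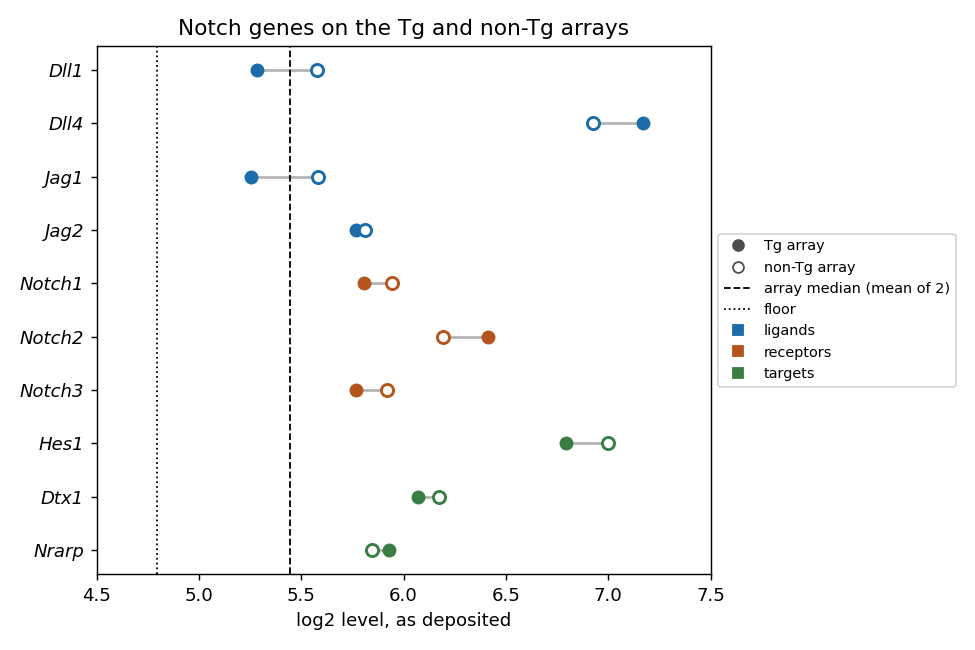
Log2 level of each of the 10 Notch genes on the Tg array (filled) and the non-Tg array (open), coloured by role, with the mean of both array medians (dashed) and the floor of 4.80 (dotted). Each point is 1 array, so there are no error bars; Dll1 and Jag1 sit on both sides of the dashed line, and the other 8 genes lie above it on both arrays.

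Among the ligands, Dll4 was the only one with the higher value on the Tg array. Dll4 (probe set 10474958) had a level of 7.17 on the Tg array and 6.92 on the non-Tg array. The difference of 0.25, or 1.19-fold, was 0.81 times the probe set SD, and 38.7% of genes past the filter differed by at least as much in either direction. Both values were above the upper quartile of their array (6.57 and 6.55), which among the members held for Dll4 and Hes1 alone. The ligand gene of the cortical epithelium thus lay above the dim part of the range on both arrays.

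Dll1 and Jag1 had the members' widest differences and the dimmest values. Dll1, a ligand related to Dll4 that is used in other tissues and by other stromal cells, had 5.28 (Tg) and 5.57 (non-Tg) (probe set 10448034), a difference of -0.29. Jag1, a Serrate-type ligand of many epithelia and vessels, had 5.25 (Tg) and 5.58 (non-Tg) (probe set 10488060), a difference of -0.33 or 1.25-fold lower in Tg. Jag1 was the 1 member past the probe set SD, at 1.08 times it, and 26.3% of genes past the filter differed by at least as much.

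Both genes passed the filter through the non-Tg array alone, since their Tg values lay 0.15 and 0.18 under that array's median. Such a gene is kept only because one value is higher, which favours a difference. With the floor set at the 50th percentile, the differences shrank to -0.13 for Dll1 and -0.14 for Jag1. Jag2, the other Serrate-type ligand, had 5.77 (Tg) and 5.81 (non-Tg) (probe set 10402808). Its difference was -0.05 as deposited and -0.03 once each array was centred on its median. The median over the 4 ligands was -0.17, and -0.09 with the higher floor.

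The receptors showed the same scale of difference and no common direction. Notch1, the receptor that thymocyte progenitors need for T cell commitment, had 5.81 (Tg) and 5.94 (non-Tg) (probe set 10481056), a difference of -0.13. Notch3, which developing thymocytes also express and which pericytes and smooth muscle use, had 5.77 (Tg) and 5.92 (non-Tg) (probe set 10449775), a difference of -0.15. Notch2, a receptor widely expressed in stromal and myeloid cells and B cells, went the other way with 6.41 (Tg) and 6.19 (non-Tg) (probe set 10494595). Its difference was 0.22, or 1.16-fold, and 44.1% of genes past the filter differed by at least as much. The median of the 3 receptors was -0.13. Each was above its array's median on both arrays and below the upper quartile on both.

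The target genes, which report Notch signalling in the cells that receive it, were also close on both arrays. Hes1, a basic helix-loop-helix repressor and direct RBPJ target, had 6.80 (Tg) and 7.00 (non-Tg) (probe set 10434925). The difference was -0.20, or 1.15-fold lower in Tg, and 46.6% of genes past the filter differed by at least as much. Hes1 is transcribed in many cell types and is no marker of thymocytes. Dtx1, a Deltex ubiquitin ligase that Notch induces in early T cells, had 6.07 (Tg) and 6.17 (non-Tg) (probe set 10533182), a difference of -0.10. Nrarp, an ankyrin-repeat protein that Notch induces and that limits the Notch complex in return, had 5.93 (Tg) and 5.85 (non-Tg) (probe set 10469936), a difference of 0.08. The median of the 3 targets was -0.10. Receptors and targets together had 2 differences above 0 and 4 below, from -0.20 to 0.22.

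**Figure D2:**
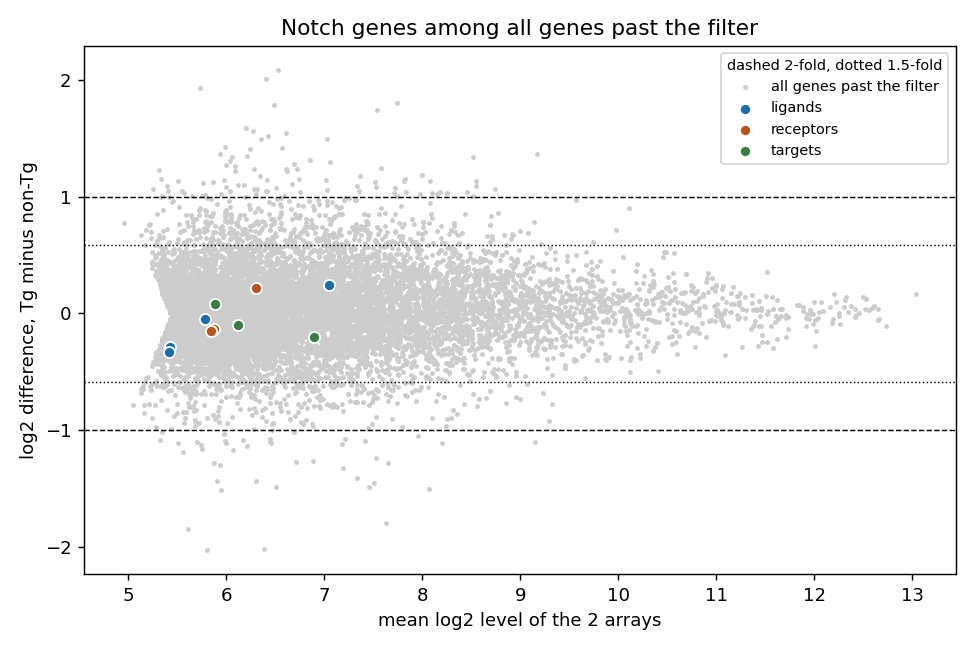
Log2 difference, Tg minus non-Tg, against the mean log2 level of both arrays for the 11422 genes past the filter (grey), with the Notch ligands, receptors and targets in colour. Dashed lines mark 2-fold and dotted lines 1.5-fold; all 10 Notch genes lie inside the dotted lines, from -0.33 to 0.25. The missing wedge of grey points at the left edge is made by the filter, which keeps a dim gene only if one of its values is higher.

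The spread of all genes at the members' levels puts these values in scale. The genes past the filter were divided by mean level into 4 bins of nearly equal size. The SD of the difference was 0.29 in the dimmest bin, 0.34 and 0.37 in the middle bins and 0.32 in the brightest. The share of genes 1.5-fold or more apart ran from 5.78% in the dimmest bin to 11.0% in the third. Dll1 and Jag1 belonged to the dimmest bin and Dll4 and Hes1 to the third.

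The rest of the pathway was followed through 9 lists with 65 genes, of which 61 were analysed here and 56 passed the filter. Of those 56, 0 were 2-fold apart. At 1.5-fold, 4 were higher and 0 lower in Tg, or 7.14%, beside 7.86% of all genes past the filter. On the deposited scale the pathway's share was thus near the background. Under quantile normalization of both arrays it was 14.3%, beside 7.70% of all genes past the filter. The split was then 4 higher and 4 lower, because Psenen, Aph1a, Myc and Spen, which were just short of 1.5-fold as deposited, moved past it. On the higher side, Itch and Kat2b were also just short as deposited, each at 0.55, and stayed short. The median over the 61 genes was 0.00, with 31 differences above 0, 29 below and 1 at 0.

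Among other ligands and the fourth receptor, 2 of 5 genes passed the filter and 1 was 1.5-fold higher. Dlk2, an atypical Delta-like protein that lacks the receptor-activating domain of the classical ligands, had 6.79 (Tg) and 6.17 (non-Tg), a difference of 0.63 or 1.54-fold. Its relative Dlk1 had 6.58 (Tg) and 6.27 (non-Tg), a difference of 0.31. Dll3, Dner and Notch4 did not pass the filter, with Notch4, a receptor of the endothelium, at 5.00 (Tg) and 5.20 (non-Tg).

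Genes that act in the ligand-bearing cell were nearly level. The 7 genes of ligand ubiquitination and endocytosis all passed the filter. At 1.5-fold, 0 of them were apart, and the differences ran from -0.14 to 0.23. Mib1, the ubiquitin ligase that ligands need to be active, had 7.47 (Tg) and 7.24 (non-Tg), a difference of 0.23. Epn1, an endocytic adaptor, had 6.43 (Tg) and 6.56 (non-Tg), a difference of -0.14.

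Genes that modify or cut the receptors also held 0 at 1.5-fold on the deposited scale. Of 5 genes of O-glycosylation, which tunes which ligand a receptor answers, 4 passed the filter, with differences from -0.23 to 0.23 over all 5. Poglut1, a glucosyltransferase, had 7.04 (Tg) and 6.95 (non-Tg), and Rfng, a Fringe enzyme, 5.78 (Tg) and 5.84 (non-Tg). Lfng, the Fringe enzyme of early thymocytes, did not pass the filter and had the identical value of 5.03 on both arrays, as 2.80% of all probe sets had identical values.

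Of the cleavage genes, 9 of 10 were measured and 9 passed the filter. Their differences ran from -0.58 to 0.51, with 4 above 0 and 5 below. Psenen, a subunit of the gamma-secretase that releases the intracellular part, had 8.19 (Tg) and 8.78 (non-Tg). Its difference of -0.58 lay just under 1.5-fold, and its other, slightly dimmer probe set gave -0.59, just past it. Aph1a, another subunit, had -0.55 and -0.56 on its probe sets. The subunit gene Ncstn had 0.39, the opposite sign. Adam10, the protease that makes the cut outside the membrane, had 8.21 (Tg) and 7.91 (non-Tg), a difference of 0.30, and Adam17, a related protease, 0.51.

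In the nuclear complex, 8 of 8 genes passed the filter and 1 was 1.5-fold higher. Maml2, a Mastermind coactivator, had 6.42 (Tg) and 5.55 (non-Tg), a difference of 0.87 or 1.83-fold, while its other, dimmer probe set had 5.34 (Tg) and 5.52 (non-Tg) and gave -0.17. Averaged over both probe sets, Maml2 was no longer 1.5-fold apart. Rbpj itself had 7.58 (Tg) and 7.32 (non-Tg), a difference of 0.25, and its dim second probe set had 4.99 on both arrays.

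Of the corepressors that act with RBPJ in the absence of signal, 6 of 8 were measured and all 6 passed the filter. Cir1, a corepressor that binds RBPJ, had 8.07 (Tg) and 7.36 (non-Tg), a difference of 0.71, and its other probe set gave 0.62. Spen, a large corepressor, had the opposite sign at -0.57. Of 9 genes of receptor inhibition and turnover, 8 passed the filter. Sel1l, an adaptor of the degradation machinery of the endoplasmic reticulum, had 8.15 (Tg) and 7.29 (non-Tg), a difference of 0.85 or 1.81-fold on its single probe set. Numb, an inhibitor of the receptors, differed by 0.01.

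**Figure D3:**
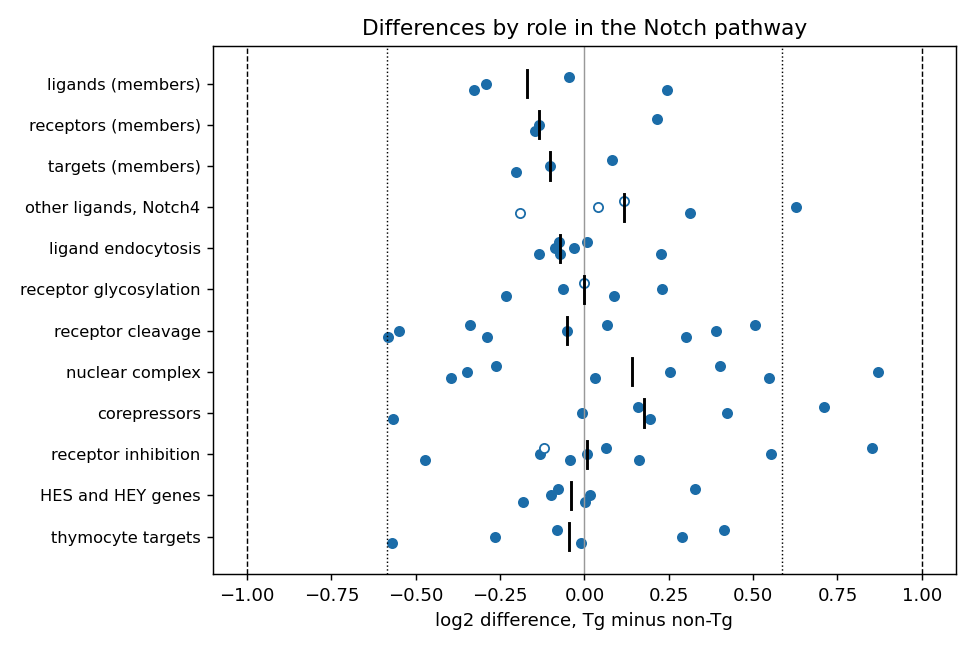
Log2 difference, Tg minus non-Tg, of each measured gene in 12 groups of the Notch pathway, the members in the upper 3 rows. Filled points passed the filter and open points did not, black bars are medians, dotted lines mark 1.5-fold and dashed lines 2-fold; Dlk2, Maml2, Cir1 and Sel1l lie to the right of the dotted line and 0 genes lie to the left of the other (4 under quantile normalization).

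Other target genes, more in number than the 3 member targets, had differences from -0.57 for Myc to 0.41 for Il2ra. Of 6 further HES and HEY genes, all 6 passed the filter. Their median was -0.04, and 0 of them were 1.5-fold apart. Hey1 had 7.97 (Tg) and 7.65 (non-Tg), a difference of 0.33, and Hes5 had 6.62 (Tg) and 6.72 (non-Tg), a difference of -0.10. Of 7 Notch-responsive genes of early thymocytes, 6 were measured, 6 passed the filter and 0 reached 1.5-fold as deposited. They had 2 differences above 0 and 4 below (3 and 3 under either other scaling). Myc, a growth regulator that Notch1 induces, had 7.62 (Tg) and 8.18 (non-Tg), a difference of -0.57. Igf1r, a growth factor receptor, had 7.22 (Tg) and 6.93 (non-Tg), a difference of 0.29. Ptcra, the pre-T cell receptor alpha chain made at the stage when Notch signals strongly, had 5.67 (Tg) and 5.68 (non-Tg), and Il2ra, a marker of the same stage, had 6.90 (Tg) and 6.48 (non-Tg); the last pair was named after their values were seen.

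The labels were checked against marker genes. Aire had 7.33 on the Tg array and 6.06 on the non-Tg array, a difference of 1.28 or 2.43-fold. Of the 10 cTEC markers, 10 passed the filter, on levels from 7.38 to 12.6, and all 10 differences were above 0 as deposited (9, with 1 at 0, under quantile normalization), with a median of 0.13 and a highest value of 0.48 for Enpep. The brightest, the chemokine gene Ccl25 and the keratin gene Krt8, differed by 0.06 and 0.05. Over all 10 markers, the log2 of the summed linear levels was 14.66 (Tg) and 14.55 (non-Tg), a difference of 0.11. Psmb11, at 0.37, is among these markers and is also the gene whose promoter drives Aire in the transgenic strain. The markers are bright, and the median over all genes above the 75th percentile of both arrays was 0.04. Dll4, at 0.25, had the same sign as the markers of the cells that carry it. Dll1, Jag1 and Jag2 had the opposite sign. The part of cell make-up in these values was not tested.

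Thymocyte RNA was on both arrays beside that of the epithelium. Of 10 measured markers of double-positive and other thymocytes, 9 passed the filter, with 3 differences above 0 and 7 below (4 and 6 with each array centred on its median) and a median of -0.05. The log2 of their summed levels was 12.35 (Tg) and 12.47 (non-Tg), a difference of -0.12. Rag1, a recombinase gene, differed by -0.07, and Cd3g, a T cell receptor component, by -0.28. Early thymocyte markers had 4 of 7 past the filter, with 3 differences above 0 and 4 below, and summed levels of 8.83 (Tg) and 8.88 (non-Tg). The genes with the highest levels, Bcl11a and Cd44, differed by -0.45 and 0.38, while Kit and Il7r, which define the stages that receive the Notch signal, did not pass the filter. Among receptors and targets, 4 of 6 differences were below 0 on the deposited scale, beside 5531 of the 11422 genes past the filter. With so few genes, 4 of 6 is near that share. The count was 7 of 10 in the list of double-positive and other thymocytes and 4 of 7 in the early list. The part of thymocyte number in the receptor and target values was not tested.

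Cells other than epithelium and thymocytes can also carry Notch ligands and receptors. Endothelial markers had 5 of 7 past the filter, with 4 differences above 0 and 3 below, and summed levels of 9.34 (Tg) and 9.30 (non-Tg). Cdh5, a junction gene of the endothelium, had 7.87 (Tg) and 8.02 (non-Tg), and Pecam1 7.30 and 6.82. Endothelium expresses Dll4 and Jag1, and its part in both values was not tested. Mesenchyme and pericyte markers had 5 of 8 past the filter, with 5 differences above 0 and 3 below, and summed levels of 9.82 (Tg) and 9.63 (non-Tg). Acta2, smooth muscle actin, had 7.58 (Tg) and 6.72 (non-Tg), a difference of 0.86, the 1 marker gene beyond 1.5-fold as deposited. Under quantile normalization Tyrobp, a myeloid gene, was a further one. Rgs5, a pericyte gene, had 7.69 (Tg) and 7.82 (non-Tg), a difference of -0.12. Notch3, at -0.15, had the sign of Rgs5 but the opposite sign to 5 of the 8 mesenchyme and pericyte markers, Acta2 among them. The part of mesenchyme and pericytes in the Notch3 value was not tested.

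Medullary epithelial markers had 6 of 8 past the filter, with 4 differences on each side of 0 and a median of -0.02. Their summed levels were 11.1 (Tg) and 10.8 (non-Tg), a difference of 0.26. This sum is weighted to the brightest gene, Krt5, at 10.7 (Tg) and 10.4 (non-Tg). Krt5 differed by 0.34, Krt14 by 0.14 and Tnfrsf11a by -0.39. Myeloid markers had 2 of 8 past the filter, Tyrobp at -0.58 and Flt3 at 0.38. Of all 8, 5 differences were above 0, 1 was below, that of Tyrobp, and 2 were at 0. Their summed levels were 8.28 (Tg) and 8.33 (non-Tg), with 2 markers under the floor on both arrays. B cell markers had 2 of 5 past the filter, Ebf1 at -0.36 and Pax5 at -0.04. Of all 5, 1 difference was above 0, 2 were below and 2 at 0. Summed levels were 7.43 (Tg) and 7.56 (non-Tg), and 2 markers, Cd79a and Ms4a1, lay under the floor on both arrays.

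**Figure D4:**
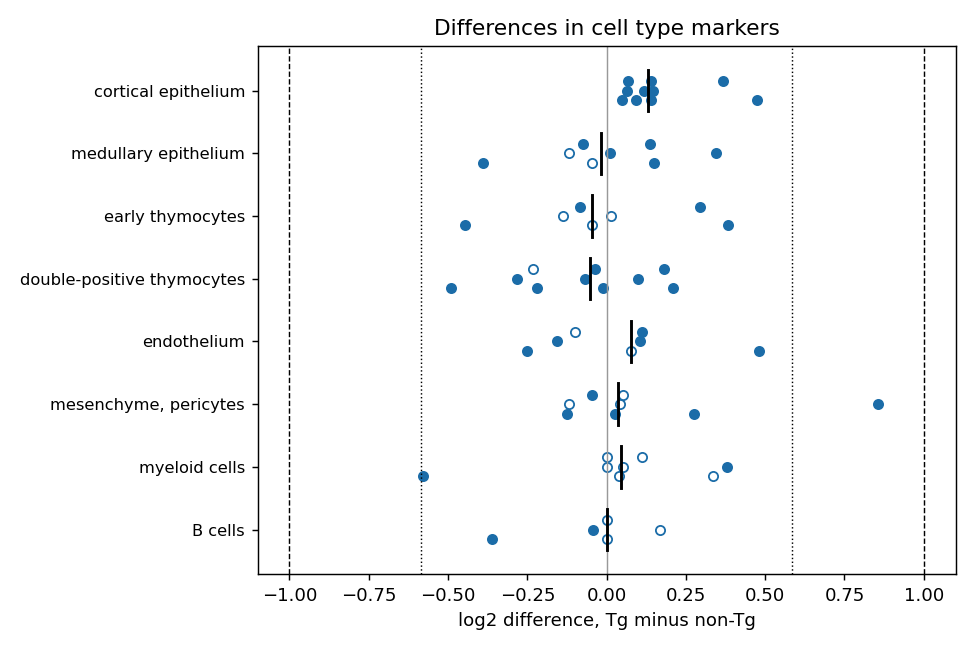
Log2 difference, Tg minus non-Tg, of the measured marker genes of 8 cell types. Filled points passed the filter and open points did not, black bars are medians, dotted lines mark 1.5-fold and dashed lines 2-fold; on this deposited scale all 10 cortical markers lie above 0 (9 under quantile normalization), and Acta2 among the mesenchymal markers is the 1 gene beyond 1.5-fold (with Tyrobp under quantile normalization).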

How the data were processed

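RNA of cTECs was measured on 2 arrays, 1 per genotype. Per the labels' protocols, 400 pg of column-purified RNA was amplified (Ovation One-Direct) and 5.5 µg of the product was biotin-labelled. The authors deposited 1 log2 value for each of 28856 probe sets and array. The log2 scale was inferred from the range (4.22 to 13.7), while for background correction, normalization, centring and software the sources used here name nothing. Array medians were 5.43 (Tg) and 5.45 (non-Tg). Precision is limited by the number of arrays, and batches could not be examined.

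Names came from GEO's platform annotation (21789 probe sets with 1 symbol, 1621 with several and 5446 with none); the gene IDs of all 10 members matched the RefSeq table of GRCm38.p6. Each gene was represented by its brightest single-symbol probe set. Folds of 2 and 1.5 served as thresholds in place of a test. The members and lists were chosen with earlier results of these data known. Named were all members and, of each other list, the genes beyond 1.5-fold or else the 2 brightest; genes named beyond this were chosen after their values were seen. Genes of similar pattern were not sought, since 2 arrays give no pattern. Alternatives changed the probe set rule, scaling, floor and filter. Python 3.11.15, numpy 2.4.6, pandas 2.3.3, scipy 1.17.1 and matplotlib 3.10.9 were used. The 2-fold call was tested on simulated data, with changes placed in brighter genes only and less scatter between arrays than seen here. The 1.5-fold call and dim genes were not tested in this way. Some listed genes are not reported here.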

Additional observations from a re-analysis of the deposited data

How the results depend on the processing

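Over 7 alternatives, the 10 members gave 62 differences, of which 0 changed sign. All 62 stayed within the probe set SD of 0.30 of the value as reported. Many of these values could not move. All 10 members have 1 probe set and 0 lay under the floor. The probe set rule, the removal of the floor and the filters therefore left every member's difference as it was. Only the other scalings and the higher floor could change it. The largest shift was 0.19, for Jag1 with the floor at the 50th percentile. Under the filter that asks both arrays to exceed their 75th percentile, 2 members remained, Dll4 and Hes1, so 8 members have no value there. The counts of members beyond 2-fold and 1.5-fold were 0 under all 7. Dll4 ranged from 0.20 to 0.27 and Hes1 from -0.24 to -0.18. The count of other pathway genes beyond 1.5-fold, 4 as reported, was 8 under quantile normalization and 2 under the 75th percentile filter, which tests 22 of the genes in place of 56. The median over all genes past the filter lay between -0.003 and 0.04 under the alternatives. No paired analysis was possible because each genotype has 1 array, and for the same reason no replicate could be left out. Dim values are compressed near the lower bound, so a difference in a gene at the level of Dll1 or Jag1 can be understated.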

Other observations

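Some listed genes, Notch4 and Ccl21a among them, are read by probe sets shared with other genes, which the comparisons above do not use. The 10 members had 0 such probe sets. A set of 6 probe sets is annotated to both Notch4 and Sympk, with levels from 4.54 to 5.08 and differences from 0 to 0.16, so none of them reached an array's median. Ccl21a, a chemokine gene of the medulla on the marker list, was covered by 4 probe sets shared with its near-identical copies, and all 4 had differences between 0.26 and 0.27.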
